A study of Mus musculus with 6 samples.

Results

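Among the 54352 genes of the deposited expression table, 37 are the genes for p53, its relatives, its regulators and its known targets. They were taken by gene symbol, and each of the 37 symbols matched 1 row. RNA had been sequenced from 3 libraries of SIRT1 KO and 3 libraries of WT mouse embryonic stem cells (mESCs), all male, of the 129Sv/J strain and grown in ESGRO medium with no treatment or time course. The study lists a WT and a SIRT1 KO R1 line under these names, the latter made by gene targeting. It calls the 3 libraries of a genotype biological replicates, but does not say whether they came from separate clones or cultures. The p-values thus measure only the spread between these libraries, and genotype and line cannot be told apart. Values are log2 normalized expression with no correction for gene length, and read counts were not used here. Of the 37 genes, 36 had a linear-scale mean of 10 or more and were tested. Trp63, the gene for the p53 relative of epithelia, did not reach it, with log2 values of 0.64 in SIRT1 KO mESCs and 0.66 in WT mESCs.

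The transcription factor p53 is kept at low levels by the ubiquitin ligase Mdm2 and its partner Mdm4, and is released when DNA damage or other stress is sensed. It then binds DNA as a tetramer and induces genes for growth arrest, apoptosis, DNA repair and metabolic defence, among them Mdm2 itself, which closes a feedback loop. Acetylation of lysines near the end of p53 raises its activity and SIRT1 removes such acetyl groups, which makes p53 a classical substrate of this deacetylase. mESCs hold abundant p53, much of it in the cytoplasm, and cycle rapidly with little of the usual arrest in G1. The table holds RNA only, so neither p53 protein nor its acetylation was measured.

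Sirt1, the deleted gene, had log2 values of 13.71, 13.72 and 13.79 in SIRT1 KO mESCs, against 15.52, 15.54 and 15.49 in WT mESCs. Its log2 fold change was -1.78 (SE 0.049, limma adjusted p = 1.16e-07). The remaining signal, 0.292 of the WT level, is a value for the whole gene and does not separate the targeted part from the rest.

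p53 recognizes a decamer, and its response elements are pairs of such decamers. Promoter windows from RefSeq (GRCm38.p6), which run from 250 bases before to 50 bases after a transcription start, were on hand for 27 of the 37 genes, and not for Trp63, Zmat3, Ptp4a3, Pmaip1, Perp, Tnfrsf10b, Trp53inp1, Rrm2b, Ddb2 and Xpc. A perfect match to the p53 decamer stood in the windows of 12 of these 27 genes (44.4%), against 9.55% of 27025 genes with a window. A pair of decamers with at most 13 bases between them and at most 1 mismatch in all was found for Cdkn1a, Ccng1 and Gtse1, which is 11.1% of the 27 genes, against 0.718% of all genes. Most of the listed genes were chosen as known targets of p53, so these higher shares are no separate result. The decamer reads the same on both strands, and each pair includes at least 1 of the single matches. The CHR element TTTGAA of cell cycle genes, searched on both strands, was held by Aen, Ckap2 and Fas (11.1%, against 20.2% of all genes). The following sites are those of Trp53 and Mdm2, of the 5 genes with a match that were lower in SIRT1 KO mESCs, and of Cdkn1a and Gtse1, which hold a pair. The decamers are in capitals, and each pair shown has 1 mismatch in all.
Cdkn1a, chr17:29090923-29090952, plus strand: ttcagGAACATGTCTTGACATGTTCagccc
Ccng1, chr11:40755457-40755486, minus strand: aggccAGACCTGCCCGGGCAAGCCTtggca
Gtse1, chr15:85859940-85859969, plus strand: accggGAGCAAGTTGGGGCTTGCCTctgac
Trp53, chr11:69580274-69580303, plus strand: acccacggaaGGACTTGCCCttacttgtta
Mdm2, chr10:117710925-117710954, minus strand: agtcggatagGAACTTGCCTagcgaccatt
Sesn1, chr10:41887256-41887285, plus strand: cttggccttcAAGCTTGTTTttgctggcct
Aen, chr7:78895927-78895956, plus strand: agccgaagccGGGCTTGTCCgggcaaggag
Ei24, chr9:36797325-36797354, minus strand: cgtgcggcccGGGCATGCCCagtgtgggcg
Ppm1d, chr11:85311112-85311141, plus strand: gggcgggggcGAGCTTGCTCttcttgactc

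The pair shown for Cdkn1a begins 51 bases before a start, that for Ccng1 195 bases before it and that for Gtse1 1 base before it. Cdkn1a and Gtse1 each hold a further pair that overlaps the one shown. That of Cdkn1a begins 73 bases before the start, with 12 bases between its decamers and 0 mismatches, and that of Gtse1 has 1 mismatch. A match describes the letters of the window and does not show binding, and elements outside these windows were not searched.

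Of the 36 tested genes, 11 were lower in SIRT1 KO mESCs, 3 were higher and 22 did not pass the test (limma with Benjamini-Hochberg adjustment over all genes, adjusted p under 0.01). Lower genes were thus 30.6% of the tested p53 genes, where 8.12% of all 26571 tested genes and 11.3% of the protein-coding genes were lower. Higher genes were 8.33% of them, where 8.47% of all genes and 12.4% of the protein-coding genes were higher. The median log2 fold change was -0.17 over the 36 genes and -0.01 over all tested genes. The lower genes kept between 0.627 and 0.853 of the WT level and the higher ones reached between 1.33 and 1.48 times that level. SIRT1 KO values lay wholly below WT values for 19 of the 36 genes and wholly above them for 4, where 22.9% and 21.8% of all tested genes showed the same.

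The number of higher genes was 2 or 3 under every alternative run at this threshold, but that of lower genes was not stable. It was 5, beside 3 higher, when each library was centred on its median, and 4, 2, 5, 6 and 4 without SIRT1 KO replicate 1, 2 or 3 or WT replicate 1 or 3, fits that also hold fewer libraries. Without WT replicate 2 it was 15. Lower genes were 5.56% of the p53 genes without SIRT1 KO replicate 2, where 4.83% of all tested genes were lower, so that share was near the background in that fit. Lower p53 genes were 13.9% with median centring, against 6.47% of all tested genes. In the fits without SIRT1 KO replicate 1 or 3 or WT replicate 1 or 3 they were 11.1% to 16.7%, against 5.01% to 7.30% of all tested genes. The median log2 fold change of the 36 genes lay between -0.20 and -0.11 over the alternatives.

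**Figure D1:**
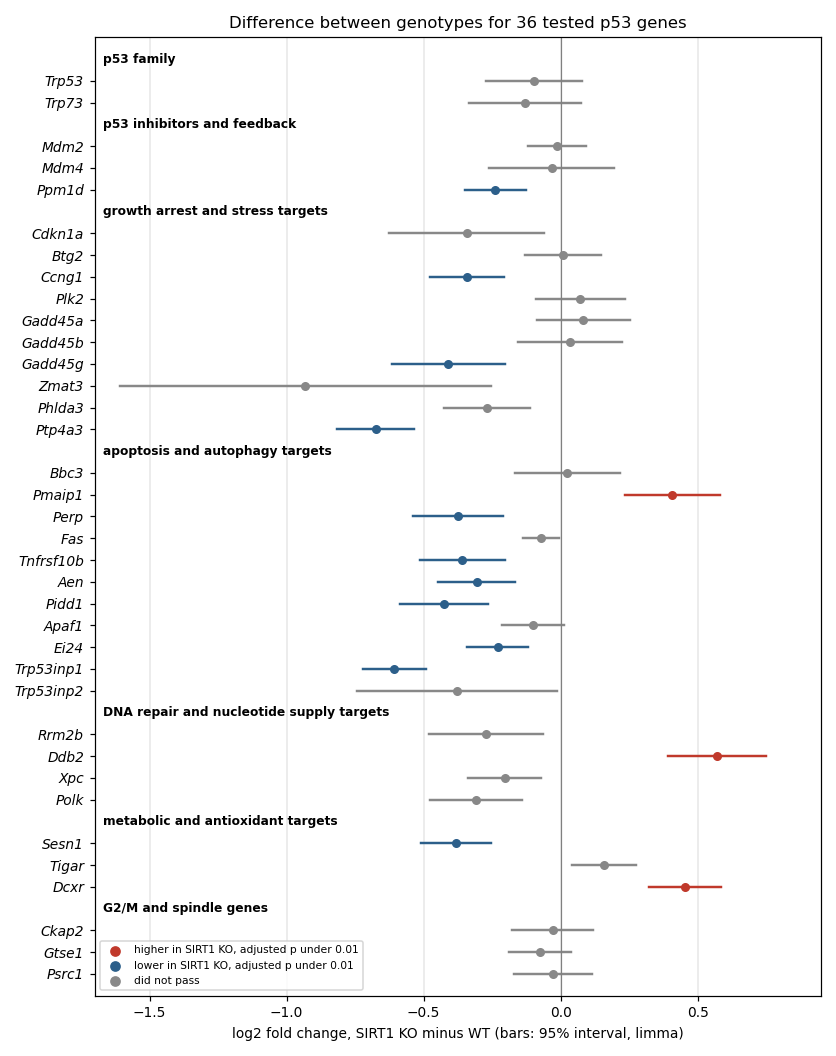
Log2 fold change between SIRT1 KO and WT mESCs for the 36 tested genes, grouped by role, with 95% intervals from limma as bars. The 11 lower genes (blue) are mostly targets for growth arrest and apoptosis, the 3 higher ones (red) are Pmaip1, Ddb2 and Dcxr, and Zmat3 has the widest interval.

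The p53 gene itself was not called in either direction. Trp53 had log2 values of 16.53, 16.32 and 16.24 in SIRT1 KO mESCs, against 16.44, 16.53 and 16.41 in WT mESCs. The groups overlapped only through SIRT1 KO replicate 1, which stood as high as the highest WT library, while the other knockout libraries lay below all WT libraries. Over the 15 alternatives the log2 fold change ran from -0.18 to -0.04, and none called it (lowest limma adjusted p = 0.0802). The log2 fold change of -0.10 did not pass (95% interval -0.27 to 0.08, adjusted p = 0.383 from limma), and the exact permutation test over the 20 assignments of libraries gave a two-sided p of 0.30, where 0.10 is the smallest that 3 against 3 libraries allow. Per kilobase of exon, Trp53 had a log2 value of 14.35 in SIRT1 KO and 14.45 in WT mESCs, and only Gtse1, at 14.74 and 14.82, was above it among the 37 genes. Trp73, the relative with roles in neural and ciliated cells, was at 6.90 and 7.03 per kilobase on the same scale and did not pass (log2 fold change -0.13, limma adjusted p = 0.317). Trp73 shares 280 of its 5534 exonic bases with Trp73os on the opposite strand, and how the counting treated strand is not stated.

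The main inhibitors of p53 did not pass the test either. Mdm2 had log2 values of 15.25, 15.31 and 15.29 in SIRT1 KO mESCs, against 15.29, 15.27 and 15.33 in WT mESCs. All 6 values lay close together, with SDs of 0.029 in SIRT1 KO and 0.033 in WT mESCs. The log2 fold change was -0.01 (95% interval -0.12 to 0.09, adjusted p = 0.860 from limma), and the exact permutation test gave a two-sided p of 0.60. Mdm4 was at 15.25, 15.31 and 15.23 in SIRT1 KO mESCs, against 15.18, 15.56 and 15.16 in WT mESCs, so that WT replicate 2 alone stood above the knockout libraries (log2 fold change -0.03, limma adjusted p = 0.838). Its sign turned without WT replicate 2 (log2 fold change 0.10). Ppm1d, the p53-induced phosphatase that switches off p53 and its activating kinases, was lower at 13.51, 13.52 and 13.54 in SIRT1 KO mESCs, against 13.76, 13.72 and 13.80 in WT mESCs. The groups were separate but the change was small, with a log2 fold change of -0.24 (SE 0.049, limma adjusted p = 0.00695), and the call was lost with replicate number as a block (adjusted p = 0.0171).

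**Figure D2:**
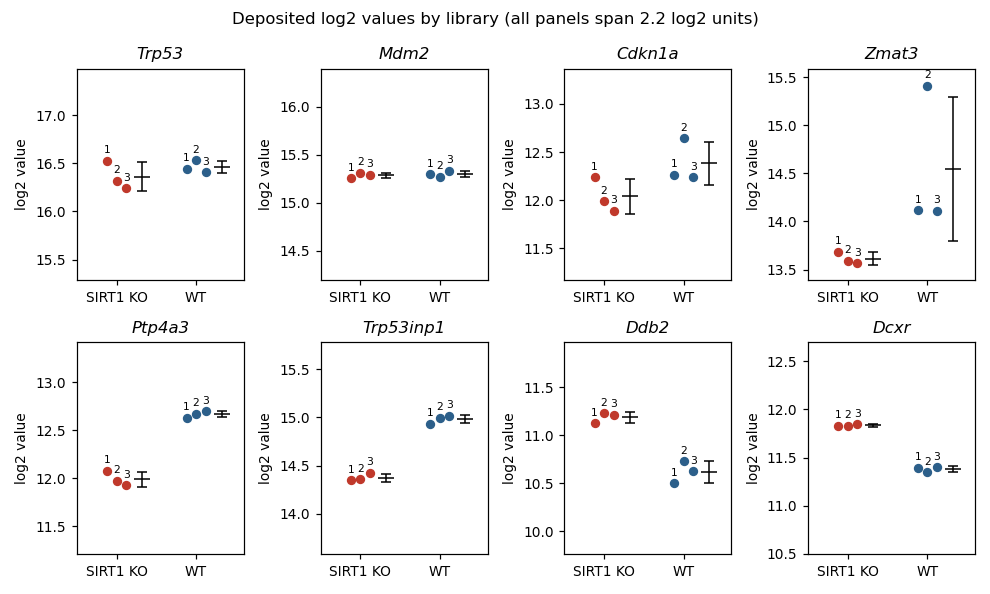
Deposited log2 values of 8 genes in the 3 SIRT1 KO (red) and 3 WT (blue) libraries, numbered by replicate, with the mean and SD beside them. Trp53 and Mdm2 overlap between genotypes, Ptp4a3, Trp53inp1, Ddb2 and Dcxr do not, and WT replicate 2 stands apart for Zmat3 and Cdkn1a.

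Of the 10 genes of growth arrest and stress, 3 were lower (30.0%) and none higher, and the other 7 missed the threshold. Among all tested genes 8.12% were lower and 8.47% higher. This and the other role groups are small, so their counts are a description. Ptp4a3, a phosphatase of the PRL family that p53 induces in mouse fibroblasts, had log2 values of 12.08, 11.97 and 11.93 in SIRT1 KO mESCs, against 12.63, 12.67 and 12.70 in WT mESCs. The groups were far apart relative to their spread, with a log2 fold change of -0.67 (SE 0.062, limma adjusted p = 7.52e-05). Ccng1, which encodes cyclin G1, a target that feeds back on Mdm2, was at 15.36, 15.46 and 15.54 in SIRT1 KO mESCs, against 15.80, 15.73 and 15.84 in WT mESCs. It was lower by a log2 fold change of -0.34 (SE 0.060, limma adjusted p = 0.00288), and its promoter holds the pair of decamers shown above. Gadd45g, a stress sensor that binds cell cycle kinases, was the lowest expressed of the called genes, with log2 values of 7.501, 7.37 and 7.35 in SIRT1 KO mESCs, against 7.84, 7.67 and 7.93 in WT mESCs (log2 fold change -0.41, limma adjusted p = 0.00961, and 0.01004 with the replicate block, which ends the call). The related Gadd45a and Gadd45b overlapped between genotypes, with log2 fold changes of 0.08 and 0.03.

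Cdkn1a, the gene for the cell cycle inhibitor p21 and the best known target of p53, did not pass. It had log2 values of 12.24, 11.99 and 11.89 in SIRT1 KO mESCs, against 12.26, 12.64 and 12.24 in WT mESCs. All knockout values were below all WT values, but SIRT1 KO replicate 1 nearly met the lowest WT library, and WT replicate 2 was the highest of all. The log2 fold change was -0.34 (SE 0.12, limma adjusted p = 0.0710), the exact permutation test gave a two-sided p of 0.10, and without WT replicate 2 the log2 fold change was -0.21 (adjusted p = 0.116). Cdkn1a shares 273 of its 3553 exonic bases with an unnamed gene on the opposite strand, as Gadd45a, Rrm2b and Tigar share 337 of 1764, 734 of 9134 and 122 of 3658 with other genes.

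Zmat3, an RNA-binding zinc finger protein and target of p53, had the lowest log2 fold change of the 36 genes and did not pass. It was at 13.69, 13.59 and 13.56 in SIRT1 KO mESCs, against 14.11, 15.41 and 14.11 in WT mESCs. WT replicate 2 lay 1.30 above the mean of the other WT libraries, a gap that 39 of all tested genes, or 0.147%, reached or exceeded. The log2 fold change was -0.93 (SE 0.30, limma adjusted p = 0.0455), and without WT replicate 2 it was -0.50 with a much smaller spread (adjusted p = 5.48e-05). Phlda3, a repressor of Akt, had a log2 fold change of -0.27 (limma adjusted p = 0.0194). It likewise passed only without WT replicate 2 or when protein-coding genes alone were fitted and adjusted over (limma adjusted p = 0.00364 and 0.00859). Btg2, an antiproliferative cofactor of mRNA decay, and the kinase Plk2 had log2 fold changes of 0.01 and 0.07 and overlapped between genotypes.

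**Figure D3:**
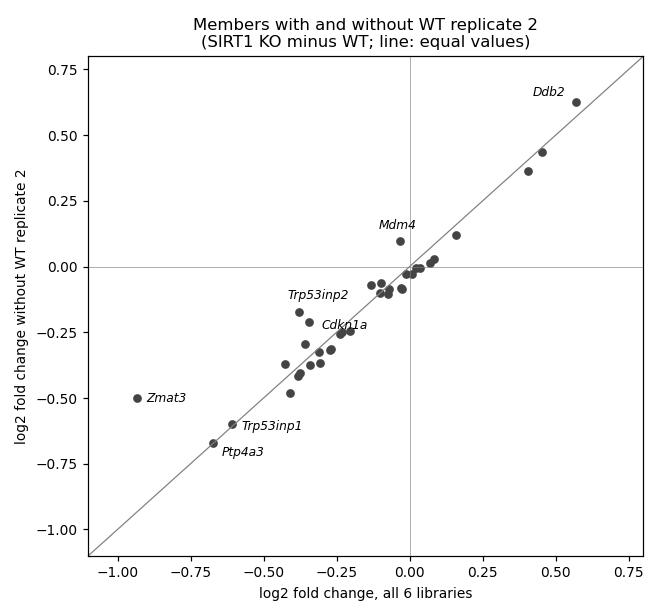
Log2 fold change of the 36 tested genes from all 6 libraries (horizontal) and without WT replicate 2 (vertical), with the line of equal values. Most genes lie near the line, while Zmat3, Trp53inp2, Cdkn1a and Mdm4 move up, and Zmat3 moves from -0.93 to -0.50.

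WT replicate 2 also held the highest value of Trp53inp2, an autophagy factor, at 12.76, which was 0.62 above the mean of the other WT libraries. Its log2 values were 12.12, 11.97 and 11.83 in SIRT1 KO mESCs, against 12.12, 12.76 and 12.17 in WT mESCs. The log2 fold change of -0.38 did not pass (adjusted p = 0.115) and was -0.17 without that library. Over all tested genes WT replicate 2 deviated most from the mean of its genotype (root mean square 0.141), with 865 genes (3.26%) more than 0.5 from the mean of the other WT libraries, against 21 to 642 genes for each of the other 5 libraries. What sets this library apart was not tested.

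Of the 11 genes of apoptosis and autophagy, 6 were lower (54.5%), 1 was higher and 4 did not pass. The shares of all tested genes were 8.12% lower and 8.47% higher. With median centring the calls of Perp, Tnfrsf10b, Aen and Ei24 among these 6 were lost. Trp53inp1, a stress-induced nuclear protein that promotes apoptosis and autophagy, was at 14.34, 14.36 and 14.42 in SIRT1 KO mESCs, against 14.93, 14.998 and 15.01 in WT mESCs. The libraries of each genotype lay close together, and the log2 fold change of -0.61 (SE 0.050, limma adjusted p = 4.43e-05) had the smallest adjusted p of the 36 genes. Pidd1, which activates caspase-2, was at 12.95, 12.89 and 12.78 in SIRT1 KO mESCs, against 13.24, 13.41 and 13.24 in WT mESCs (log2 fold change -0.43, limma adjusted p = 0.00210). Perp, a membrane protein of desmosomes and an apoptosis effector, was at 11.15, 11.22 and 11.33 in SIRT1 KO mESCs, against 11.60, 11.55 and 11.67 in WT mESCs (log2 fold change -0.38, limma adjusted p = 0.00469).

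Tnfrsf10b, the mouse receptor for the death ligand TRAIL, was lower with a log2 fold change of -0.36 (adjusted p = 0.00444 from limma) from values of 12.48, 12.50 and 12.43 in SIRT1 KO mESCs, against 12.73, 12.95 and 12.79 in WT mESCs. The other death receptor of the list, Fas, was near the limit of the test at log2 values of 3.90 in SIRT1 KO and 3.97 in WT mESCs, and did not pass (adjusted p = 0.0957). Aen, a nuclease that aids apoptosis, was at 16.02, 16.03 and 16.07 in SIRT1 KO mESCs, against 16.37, 16.23 and 16.44 in WT mESCs (log2 fold change -0.31, limma adjusted p = 0.00614). It was among the most abundant targets per kilobase, with log2 values of 13.50 in SIRT1 KO and 13.81 in WT mESCs. Ei24, an endoplasmic reticulum protein with a role in autophagy, was at 14.61, 14.52 and 14.57 in SIRT1 KO mESCs, against 14.80, 14.76 and 14.82 in WT mESCs (log2 fold change -0.23, limma adjusted p = 0.00830, and 0.0173 with the replicate block, which ends the call). Ei24 shares 324 of its 4868 exonic bases with Gm26787 on the opposite strand.

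Pmaip1, the gene for the BH3-only protein Noxa, went the other way. It had log2 values of 11.55, 11.40 and 11.55 in SIRT1 KO mESCs, against 11.08, 11.004 and 11.19 in WT mESCs, with no overlap (log2 fold change 0.41, SE 0.076, limma adjusted p = 0.00407). Bbc3, which encodes the related Puma, had values of 11.81, 11.77 and 11.70 in SIRT1 KO mESCs, against 11.62, 11.67 and 11.91 in WT mESCs. These overlapped, and the log2 fold change was 0.02 (95% interval -0.17 to 0.21, adjusted p = 0.866). Apaf1, the core of the apoptosome, had a log2 fold change of -0.10 (adjusted p = 0.170).

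**Figure D4:**
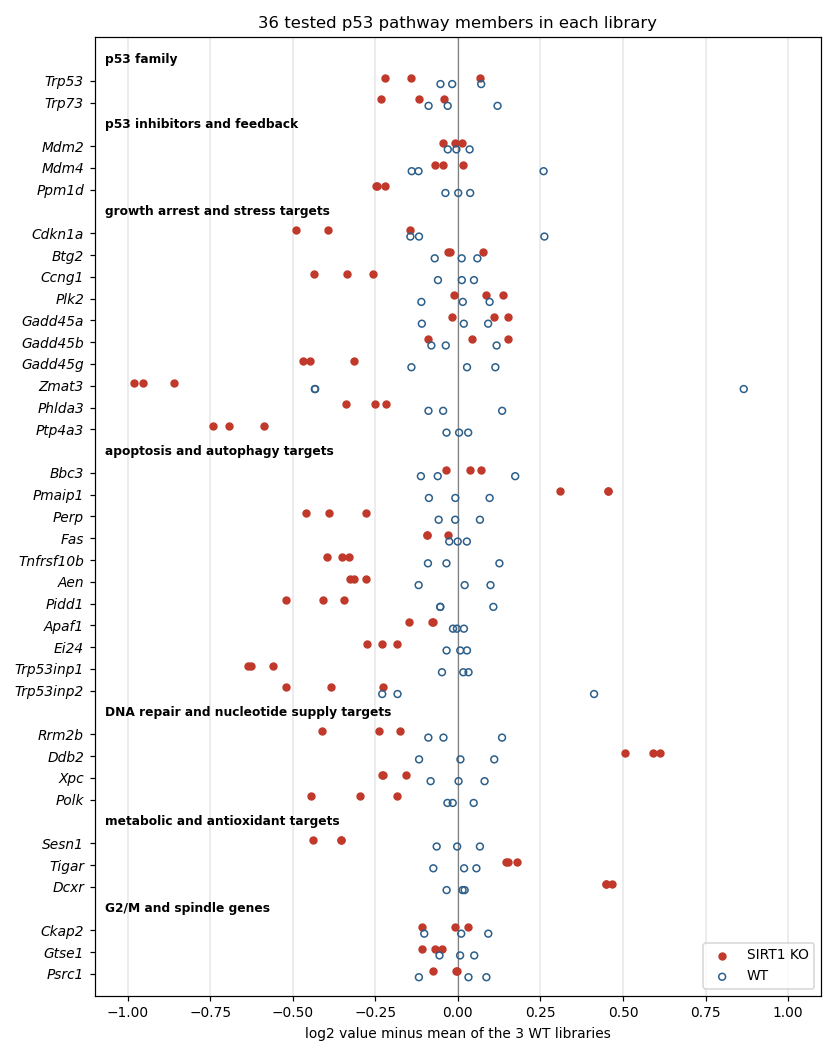
Each library's log2 value minus the mean of the 3 WT libraries for the 36 tested genes, grouped by role, with SIRT1 KO as filled and WT as open circles. For 19 genes all SIRT1 KO values lie left of the WT values and for 4, Pmaip1, Ddb2, Tigar and Dcxr, they lie right of them.

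Among 4 genes of DNA repair and nucleotide supply, Ddb2 was higher and 3 did not pass, where 8.47% of all tested genes were higher. Ddb2, the subunit that recognizes ultraviolet lesions for nucleotide excision repair, had log2 values of 11.12, 11.23 and 11.21 in SIRT1 KO mESCs, against 10.50, 10.73 and 10.62 in WT mESCs. This was the largest rise of the 36 genes, with a log2 fold change of 0.57 (SE 0.079, limma adjusted p = 0.000787) or 1.48 times the WT level. Xpc, the other damage sensor of excision repair, Polk, a translesion polymerase, and Rrm2b, the p53-induced subunit of ribonucleotide reductase, had log2 fold changes of -0.20, -0.31 and -0.27 (adjusted p = 0.0305, 0.0138 and 0.0535). For each of them all knockout values were below all WT values, which 22.9% of all tested genes also showed. Xpc passed without WT replicate 2 (adjusted p = 0.00410), and Polk passed there (0.00891), with robust moderation (0.00939) and over protein-coding genes alone (0.00665).

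Neighbours of Ddb2 on chromosome 2 were higher too, a group looked at after the values were known. Ddb2 lies from 91211572 to 91236982 on GRCm38 and shares 652 of its 2736 exonic bases with Acp2, a lysosomal phosphatase gene on the opposite strand, so reads of the genes may be mixed. Of the 10 nearest tested protein-coding genes, with midpoints within 164 kb of its own, 6 were higher and none was lower, with a median log2 fold change of 0.44. Acp2 had log2 values of 12.97, 13.004 and 12.96 in SIRT1 KO mESCs, against 12.28, 12.44 and 12.32 in WT mESCs (log2 fold change 0.63, limma adjusted p = 9.27e-05). Madd, Nr1h3, Pacsin3, Arfgap2 and 1110051M20Rik were higher by log2 fold changes of 0.65, 0.73, 0.58, 0.29 and 0.98. The neighbour medians of the other 13 called p53 genes lay between -0.20 for Aen and 0.14 for Trp53inp1. Perp, itself lower, had 4 of 10 neighbours lower and 1 higher, with a median of -0.13.

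Among the 3 genes of metabolism and antioxidant defence, 1 was lower and 1 higher, where 8.12% and 8.47% of all tested genes were. Sesn1, a sestrin that restrains mTORC1, was at 13.87, 13.78 and 13.87 in SIRT1 KO mESCs, against 14.22, 14.16 and 14.29 in WT mESCs (log2 fold change -0.38, SE 0.056, limma adjusted p = 0.00112). Dcxr, a reductase of L-xylulose and dicarbonyls, was at 11.83, 11.83 and 11.85 in SIRT1 KO mESCs, against 11.39, 11.35 and 11.40 in WT mESCs. Its spread was small, with SDs of 0.011 in SIRT1 KO and 0.030 in WT mESCs (log2 fold change 0.45, SE 0.057, limma adjusted p = 0.000482). Tigar, which lowers the glycolytic activator fructose bisphosphate, had no overlap between genotypes at 15.37, 15.37 and 15.40 in SIRT1 KO mESCs, against 15.28, 15.15 and 15.24 in WT mESCs, but did not pass (log2 fold change 0.16, limma adjusted p = 0.0484). The G2/M genes Ckap2, Gtse1 and Psrc1, which act on the spindle and of which Gtse1 also binds p53, overlapped between genotypes, with log2 fold changes of -0.03, -0.07 and -0.03.

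The calls differed in how well they held over 15 alternatives in processing. Ptp4a3, Trp53inp1, Ddb2 and Dcxr were called in all 15, at adjusted p of at most 0.00110, 0.000850, 0.00686 and 0.00470 from limma. Sesn1 was lost only without SIRT1 KO replicate 2 (adjusted p = 0.0105), and Pidd1 without SIRT1 KO replicate 2 or 3 (0.0125 and 0.0133). Ccng1 was lost without SIRT1 KO replicate 1 or 2 or WT replicate 3 (highest 0.0187), and Pmaip1 without SIRT1 KO replicate 1 or 3 or WT replicate 1 (highest 0.0250). Perp and Tnfrsf10b were called in 10 alternatives and Aen in 8, and each was lost with median centring and without several libraries (highest 0.0262, 0.0267 and 0.0356). The weakest were Ppm1d and Ei24, called in 7, and Gadd45g, called in 6, each of them lost with the replicate block.

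Promoter matches and calls can be set side by side for the 27 genes with a window. Of the 7 lower genes among them, 5 held a decamer, namely Ccng1, Sesn1, Aen, Ei24 and Ppm1d, and Pidd1 and Gadd45g did not. Of the 19 that did not pass, 7 held one, among them Trp53, Mdm2, Cdkn1a and Gtse1. The single higher gene with a window, Dcxr, held none. The median log2 fold change was -0.23 for the 12 genes with a decamer and -0.03 for the 15 without. Within the lower genes it was -0.31 with and -0.42 without a decamer, and within those that did not pass -0.07 and -0.03. The called genes Ptp4a3, Trp53inp1, Perp, Tnfrsf10b, Pmaip1 and Ddb2 have no window and are not included. These medians describe this list and were not tested.

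Beyond the 37 genes, 98 other genes of the p53 pathway were listed from general knowledge, of which 97 were tested, 15 were higher (15.5%), 13 were lower (13.4%) and 69 did not pass. These shares were near the 12.4% higher and 11.3% lower among all protein-coding genes, and the groups of the list are small, so their counts are a description. The median log2 fold change over the 97 was 0.07. Without SIRT1 KO replicate 2 these counts were 5 and 8, without SIRT1 KO replicate 3 they were 6 and 8, and without SIRT1 KO replicate 1 or WT replicate 1 the higher genes numbered 10. Without WT replicate 2 they were 22 and 18, and with median centring 21 and 11.

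Of 38 other targets, 6 were higher (15.8%) and 8 were lower (21.1%), where 12.4% and 11.3% of all protein-coding genes were. Sesn2, a sestrin like Sesn1 and also a target of ATF4, had log2 values of 16.14, 16.08 and 16.07 in SIRT1 KO mESCs, against 15.46, 15.45 and 15.52 in WT mESCs. It rose with a log2 fold change of 0.62 (SE 0.048, limma adjusted p = 3.00e-05), opposite in sign to Sesn1, while Sesn3 did not pass (-0.22, adjusted p = 0.105). Gdf15, a secreted stress cytokine that ATF4 also induces, was higher by 1.03 and the kinase Plk3 by 0.55 on the log2 scale. Steap3, a metalloreductase of iron uptake, was at 10.32, 10.17 and 10.06 in SIRT1 KO mESCs, against 12.59, 12.58 and 12.62 in WT mESCs. That is 0.188 of the WT level (log2 fold change -2.41, SE 0.077, limma adjusted p = 2.69e-07). Eda2r, a receptor of the TNF family, was lower with a log2 fold change of -0.64 (limma adjusted p = 7.86e-05).

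**Figure D5:**
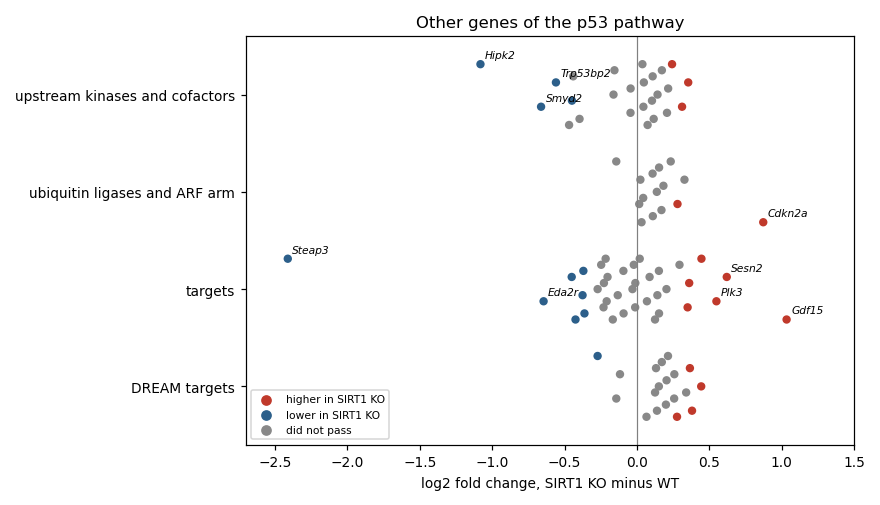
Log2 fold change of other tested genes of the p53 pathway in 4 groups, with 1 row of points for each group, where red marks genes higher and blue genes lower in SIRT1 KO mESCs. Called genes beyond 0.5 are named, with Steap3 at -2.41 as the lowest and Gdf15 at 1.03 as the highest.

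Of 25 upstream kinases and cofactors, 3 were higher and 4 were lower. Hipk2, a kinase that phosphorylates p53, was at 10.40, 10.51 and 10.34 in SIRT1 KO mESCs, against 11.32, 11.80 and 11.35 in WT mESCs (log2 fold change -1.08, SE 0.13, limma adjusted p = 0.000300). Smyd2, a methyltransferase of p53, and Trp53bp2, which directs p53 to apoptosis genes, were lower by log2 fold changes of -0.66 and -0.56. Among 15 ubiquitin ligases and genes of the ARF arm, 2 were higher (13.3%) and none was lower. Cdkn2a, the gene for the Mdm2 inhibitor ARF and for p16, was at 11.11, 11.03 and 11.07 in SIRT1 KO mESCs, against 10.11, 10.17 and 10.32 in WT mESCs (log2 fold change 0.87, SE 0.077, limma adjusted p = 6.34e-05), a value that does not separate its transcripts. Of 19 cell cycle genes that p53 represses through the DREAM complex, 4 were higher (21.1%), 1 was lower (5.26%) and 14 did not pass. The higher ones were Ccnb1, Cdc20, Mcm5 and Bub1, by log2 fold changes of 0.44, 0.38, 0.37 and 0.28, and Aurkb was lower (-0.27). Among all protein-coding genes 12.4% were higher and 11.3% lower, and the counts of these small groups are a description.

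Markers of the cell type were checked alongside. Of 12 mESC markers all were expressed and only Klf4 passed the test (log2 fold change -0.34), and their summed log2 level ran from 21.28 to 21.32 in SIRT1 KO and from 21.27 to 21.35 in WT libraries. Some markers of other cell types differed between the genotypes. The summed log2 level of 7 genes of 2-cell-like cells was 13.24 to 13.39 in SIRT1 KO and 14.26 to 14.67 in WT libraries (5 of 7 lower), and that of 8 primitive endoderm genes was 13.58 to 13.75 in SIRT1 KO and 14.34 to 14.48 in WT libraries (4 lower, 1 higher). For 8 trophoblast genes it was 15.35 to 15.44 in SIRT1 KO and 14.53 to 14.61 in WT libraries (3 higher, 1 lower), for 8 fibroblast genes 10.39 to 10.51 in SIRT1 KO and 10.86 to 11.06 in WT libraries (3 tested, 1 lower, with Postn, Dcn and Fap at 0 in all libraries), and for 8 mesoderm and neural genes the ranges were 15.56 to 15.59 in SIRT1 KO and 15.39 to 15.64 in WT libraries (6 tested, 1 lower), which overlap. A sum mostly follows its most abundant genes, which were Col4a1 for primitive endoderm (13.37 in SIRT1 KO and 14.27 in WT mESCs, while Sox7 was higher by 0.96), Krt8 for trophoblast in SIRT1 KO mESCs (14.37, and 12.01 in WT mESCs) and Thy1 for fibroblasts (10.30 in SIRT1 KO and 10.86 in WT mESCs). The part of these markers in the values of the p53 genes was not tested, and in bulk RNA fewer cells of a type and less RNA per cell cannot be told apart.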

How the data were processed

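Reads were trimmed by the authors with Trim Galore and aligned with STAR to GRCm38, read counts over Gencode vM18 genes came from featureCounts, and DESeq2 scaled them. The deposited table holds log2 normalized expression for 54352 genes in 6 libraries, with no counts, and its transformation is not stated. Low values are drawn together between libraries, which understates their changes. The series text gives reads of 76 bases and a kit that depletes ribosomal RNA, while the sample labels give 75 bases and a poly(A) selection. The depth behind a gene is not known.

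Genotypes were compared in R 4.3.3 with limma 3.58.1, with a mean-variance trend, over 26571 genes with a linear mean of at least 10. Benjamini-Hochberg adjustment ran over all of them, and genes were called under 0.01, the threshold of the study. Each SE belongs to its log2 fold change. Exact permutation tests were run for Trp53, Mdm2 and Cdkn1a. Positions, exon lengths and exon overlaps are from GENCODE vM21 on GRCm38, and levels per kilobase use the union of exons.

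The rule named every listed p53 gene, with values per library for Trp53, Mdm2, Cdkn1a and called genes beyond 0.5 on the log2 scale. Values per library of other genes were added after they were seen. For 1 gene of the other p53 pathway list, which is included in the counts, values are not reported here. The genes and lists were chosen with earlier results of these data known. Deviations from the genotype means correlated between libraries of equal replicate number (0.24, 0.15 and 0.32) and less between others (0.08 at most), so 1 alternative used the number as a block. Further alternatives were no filter, a filter at a mean of 100, median centring, quantile normalization, a pseudocount of 10, moderation without the trend or with robust estimation, protein-coding genes only, a threshold of 0.05 and leaving out each library.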

Additional observations from a re-analysis of the deposited data

How the results depend on the processing

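With median centring 5 of the 36 p53 genes were lower in SIRT1 KO mESCs, and over the fits without 1 library each their number ran from 2 to 15, against 11. Leaving out a library gave 2490 (without SIRT1 KO replicate 2) to 5463 called genes in all (2532 without SIRT1 KO replicate 3), against 4408, and 13 to 40 called genes among the other p53 pathway genes (14 without SIRT1 KO replicate 3), against 28. At an adjusted p under 0.05 these counts were 7566 and 45. With the replicate block 8 p53 genes were lower and 3 higher, and besides Ppm1d, Ei24 and Gadd45g among the p53 genes, the calls of Prmt5 (adjusted p = 0.0136 from limma) and Ptprv (0.0103) were lost. Median centring called 3099 genes higher and 1718 lower, against 2251 and 2157, and left 3 p53 genes higher and 5 lower, against 3 and 11. Signs turned only for genes with log2 fold changes near 0. With median centring these were Mdm2 (0.042), Mdm4 (0.023), Ckap2 (0.027) and Psrc1 (0.029), and after quantile normalization Btg2 (-0.020). Over the fits without 1 library the log2 fold change ran from -0.029 to 0.0038 for Mdm2, -0.10 to 0.096 for Mdm4, -0.027 to 0.038 for Btg2, -0.024 to 0.097 for Gadd45b, -0.032 to 0.11 for Bbc3, -0.080 to 0.017 for Ckap2 and -0.087 to 0.016 for Psrc1. The cause of these shifts was not tested. A fit without 1 library differs both in which library is missing and in holding fewer libraries. Among the low genes, Trp63 did not reach the linear mean of 10 and was not tested. Fas missed the threshold (log2 fold change -0.072, SE 0.029, limma adjusted p = 0.0957), although its SIRT1 KO values all lay below its WT values. With 3 libraries per genotype and unknown depth per gene, how small a difference of low genes could be detected was not tested.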
